A study of Xenopus laevis with 11 samples.

Results

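The anterior neural fold at stage 18 (ANF18, 3 arrays) was compared with the neural plate at stage 12 (NP12, 2 arrays) in Xenopus laevis embryos, which gives 5 of the 11 arrays of the series. The comparison follows how the front rim of the neural plate, which forms no neural crest, comes out of the early plate. Both tissues were cut by hand from embryos raised at 15 °C, and the labels name no genotype, treatment or transgene for either group. The neural border at stage 18 (NB18, 2 arrays), which holds crest-forming tissue of the same stage as ANF18, was used to show which differences from the plate were also differences between the folds of 1 stage. Tissue and stage change together between ANF18 and NP12 and cannot be told apart in that comparison. Arrays are labelled biological replicates, with no clutch, animal or day named. The p-values rest on the spread within groups, pooled over all 11 arrays of the series, and that spread may be technical.

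At the end of gastrulation the frog neural plate is a sheet of dividing progenitors that still holds transcripts of the blastula and gastrula. As the plate folds, its rim splits by position along the head-to-tail axis. Behind, it gives neural crest, under Wnt, FGF and intermediate BMP signals. In front, Wnt inhibitors made by the underlying head mesoderm keep Wnt signalling low. The rim there forms the forebrain rim, and the eye field lies inside the plate. Just outside the plate lie placodes and the cement gland, the mucus-secreting organ by which a tadpole hangs from surfaces.

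Each array gave a log2 intensity for 15611 probe sets, of which 120 were controls and 15491 were tested. A difference of 1 on this scale is a 2-fold difference in intensity, and no level was set against that of another probe set. Background was taken from 17 tag control probe sets that match no frog transcript: 95% of their values lay below 3.72, and a level under 3.72 was not told apart from background. Where every array of a group was below that level the fold is given as a bound ("at least"), computed against 3.72. By this measure 3682 of the tested probe sets were at background on all 5 arrays. Array medians over the series lay between 4.94 and 5.04. Over the 15491 probe sets, ANF18 arrays correlated with each other at 0.991 to 0.992, the NP12 arrays at 0.99, ANF18 with NP12 arrays at 0.873 to 0.899, and ANF18 with NB18 arrays at 0.967 to 0.977. The difference between 3′ and 5′ control probe sets was taken as a measure of RNA integrity. It was negative for actin and positive for Gapd on every array, so it was used only to set the groups side by side. For actin it averaged -2.73 in ANF18 and -2.51 in NP12, a difference of -0.22 (SE 0.16). For Gapd it averaged 2.32 in ANF18 and 2.3 in NP12. Between the NP12 arrays 92 probe sets differed at least 2-fold, and the ANF18 arrays spanned at least 2-fold in 272.

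Differences between the tissues were widespread, in both directions alike. At an adjusted p of 0.05 (limma, Benjamini-Hochberg over all tested probe sets), 7364 of 15491 probe sets (47.5%) passed, with ANF18 the higher in 3622 (23.4%) and the lower in 3742 (24.2%). At least 2-fold changes numbered 3544 (22.9%), with 1708 higher and 1836 lower (11.9%). Changes of at least 16-fold were found for 51 higher and 27 lower probe sets, by fitted folds that the background can limit. The arrays of the groups did not overlap for 10403 probe sets (67.2%), called or not. Of the 3544 probe sets past 2-fold, 2412 carried exactly 1 gene symbol and the other 1132 had several or none. Loss of a cell type from a dissected tissue and less RNA per cell cannot be told apart in such bulk samples, here or in any result that follows.

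**Figure D1:**
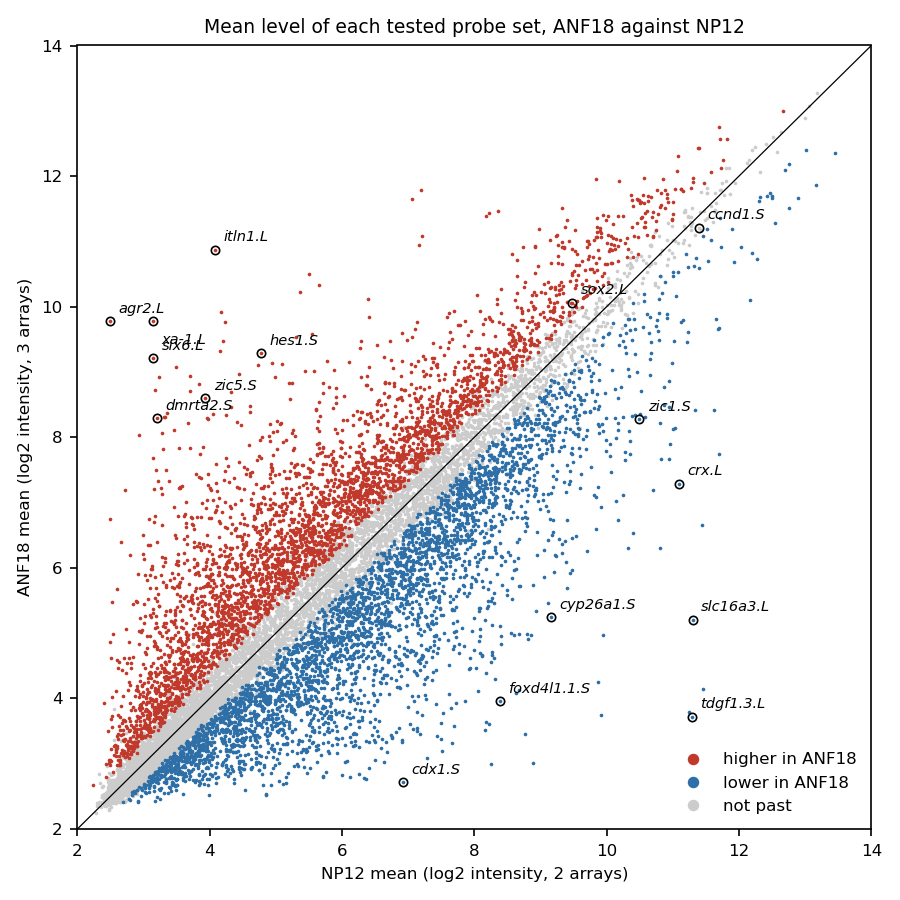
Mean log2 intensity of each of 15491 probe sets in ANF18 (vertical, 3 arrays) against NP12 (horizontal, 2 arrays). Red points passed an adjusted p of 0.05 as higher in ANF18 (3622), blue points as lower (3742), grey points did not pass, and circled genes are named. The cement gland gene agr2.L and the eye field gene six6.L lie at the upper left, tdgf1.3.L and slc16a3.L at the lower right, and ccnd1.S near the diagonal.

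The largest gains were in genes of the cement gland, the eye field, surface ectoderm and its secretory cells. The agr2.L transcript, for a secreted-pathway disulfide isomerase that marks the cement gland, read 9.71, 9.97 and 9.64 in ANF18, against 2.39 and 2.6 in NP12. All 3 fold arrays were high and both plate arrays were at background, a difference of at least 66.3-fold (log2 difference 7.28, SE 0.55, adjusted p = 4.64e-06). Another of the largest gains was itln1.L, for a lectin of the secretory cells of the epidermis, at 11.34, 10.97 and 10.3 in ANF18, against 4.03 and 4.14 in NP12 (111-fold, SE 0.42 on the log2 scale, adjusted p = 1.47e-06). Both were far from any overlap between groups. The anterior ectoderm gene xa-1.L was at least 66.7-fold higher. Plates at background leave the order of such genes unsettled.

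The remaining genes among the 12 largest fitted gains, counting each gene once by whichever copy and probe set changed most, included more eye field and keratin genes. The eye field factors six6.L and rax.L rose at least 44.9-fold and at least 19.8-fold, and a probe set of pax6.L, the eye and forebrain paired-box factor, at least 40.8-fold. The dmrta2.S gene, a DM-domain factor of anterior placodes and telencephalon, rose at least 23.7-fold. Keratin genes krt70.L (46.5-fold) and krt12.4.S (at least 25.2-fold) mark surface ectoderm, lgals4.2.L (at least 36.6-fold) codes for a galectin, and rab3d.L (32.5-fold) for a GTPase of regulated secretion. The other was LOC100158288 (37.7-fold), which the annotation leaves without a descriptive symbol. The highest adjusted p among the 12 was that of rab3d.L, 6.51e-06. The other copy of the cement gland gene, agr2.S, read 9.89, 10.08 and 9.78 in ANF18, against 4.25 and 4.1 in NP12 (53.6-fold, adjusted p = 1.39e-07).

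The largest losses were in genes of the blastula and gastrula. The tdgf1.3.L transcript, for an EGF-CFC protein of the Cripto kind that Nodal signalling needs, read 3.77, 3.96 and 3.44 in ANF18, against 11.38 and 11.19 in NP12 (189-fold lower, SE 0.22 on the log2 scale, adjusted p = 5.93e-08). One fold array was below background and the other two just above it. The bmp7.2.L gene, a BMP ligand, read 3.81, 3.96 and 3.59 in ANF18, against 11.4 and 11.09 in NP12 (176-fold lower). The pou5f3.2.L gene, one of the frog counterparts of the pluripotency factor Oct4, read 4.26, 4.35 and 3.83 in ANF18, against 11.83 and 11.08 in NP12 (159-fold lower). In all 3 genes the highest fold array was more than 6 log2 units below the lowest plate array.

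Metabolic genes made up much of the rest of the 12 largest losses. They were slc16a3.L, a monocarboxylate transporter (68.4-fold lower), cdo1.S, cysteine dioxygenase (at least 35.8-fold), hal.1.L, histidine ammonia-lyase (22.7-fold), and sds.L, serine dehydratase (at least 21.8-fold). The adaptor gene tom1l1.L fell at least 33.1-fold, the histone gene h2ac17.L at least 23.2-fold, and LOC100036828, without a descriptive symbol, 27.5-fold. The neural plate factor foxd4l1.1.S fell 21.5-fold. The heat shock gene hsp70.L was lower by 4.54 on average, but its plate arrays read 7.33 and 9.03, and without NP12 replicate 2 it did not pass (log2 difference -3.69, adjusted p = 0.059).

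Gene lists by function give the course of each tissue programme; each gene is represented by its brightest probe set. Over all 6505 named genes, 25.0% rose and 27.8% fell, with a median log2 difference of -0.04, and the list counts are read beside these shares. The lists were written with earlier results of these arrays known.

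**Figure D2:**
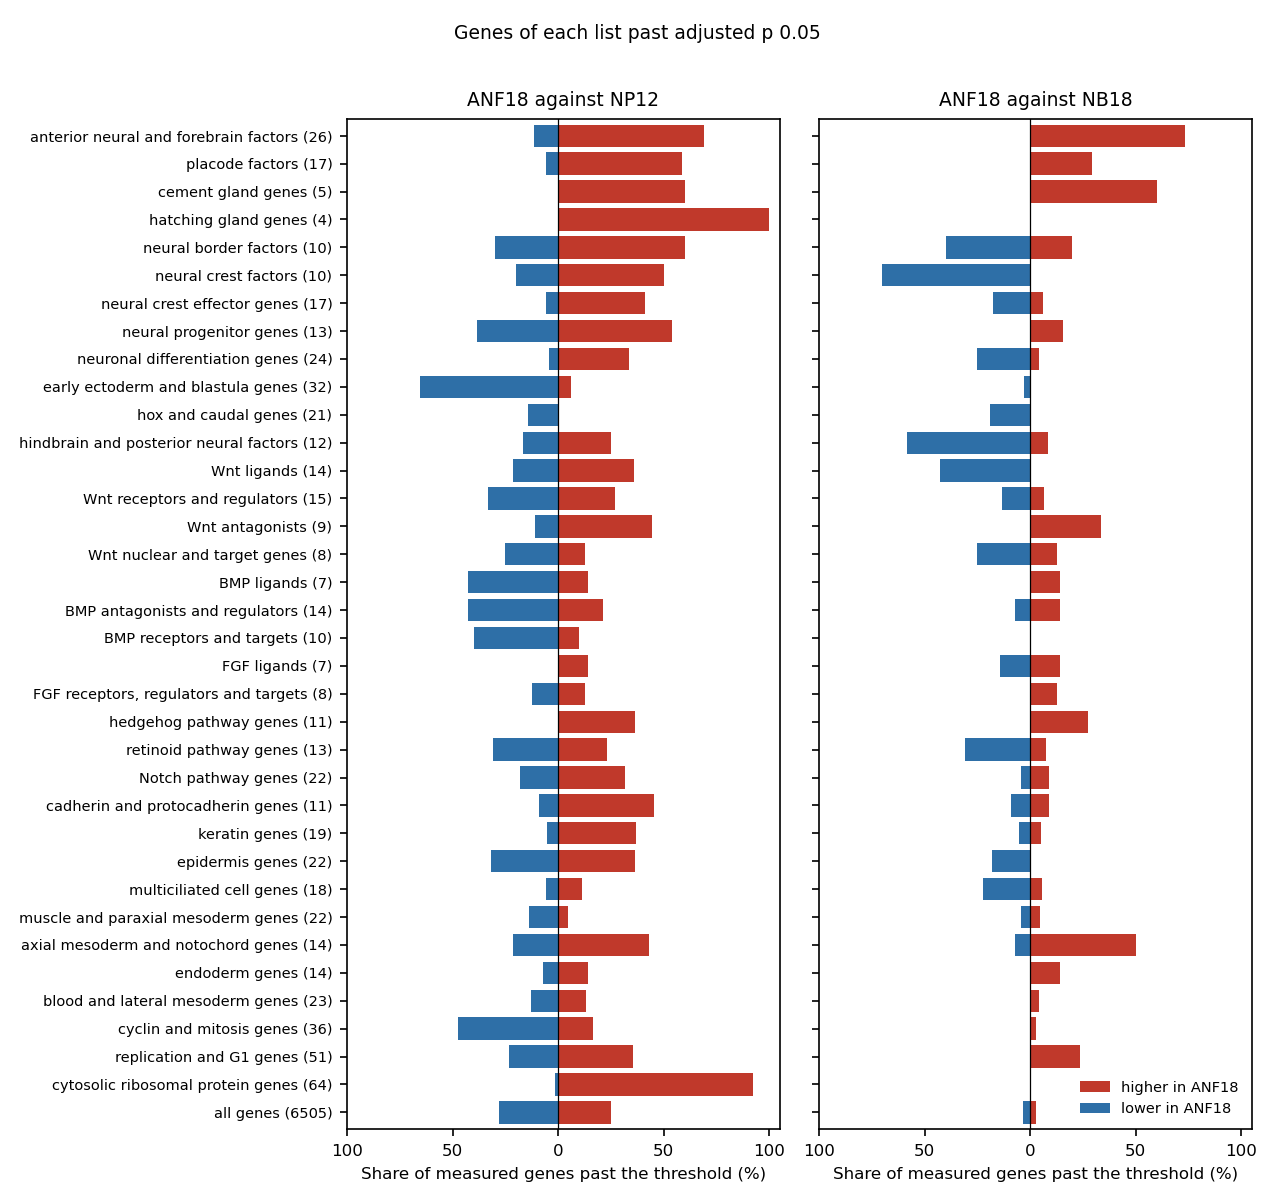
Share of the measured genes of each list (number measured in brackets) that passed an adjusted p of 0.05 as higher (red, right) or lower (blue, left) in ANF18, against NP12 in the left panel and against NB18 in the right panel. All 6505 named genes stand in the bottom row, with 25.0% higher and 27.8% lower against NP12, and 2.98% and 3.57% against NB18. The 2 panels share the ANF18 arrays.

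Anterior neural and forebrain factors rose as a group. Of 26 measured, 18 rose, 3 fell and 5 did not pass; their median log2 difference was 1.54. The six6.L level was 8.71, 9.34 and 9.59 in ANF18, against 3.15 and 3.14 in NP12. The nkx2-1.L level, for a factor of the ventral forebrain and hypothalamus, was 7.03, 7.05 and 7.31 in ANF18, against 3.19 and 3.38 in NP12 (at least 10.6-fold, adjusted p = 7.24e-08). In both genes the plate was at background on each array. The LIM factor lhx2.L, at 7.55, 6.21 and 7.28 in ANF18 against 3.61 and 3.69 in NP12, rose at least 9.76-fold (adjusted p = 1.79e-05). The rax.S copy rose at least 8.43-fold, with ANF18 replicate 2 lowest at 5.57 and replicate 3 highest at 7.89. Of these 26 genes 14 were at background on both plate arrays and 1 on all 3 fold arrays.

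A second set of anterior genes was already above background in the stage 12 plate. The eye field factor six3.L stood at 9.15, 9.07 and 9.17 in ANF18, against 4.28 and 5.59 in NP12 (18.3-fold, adjusted p = 3.53e-06). The zinc finger factor fezf2.L stood at 9.02, 9.04 and 8.99 in ANF18, against 4.22 and 6.68 in NP12 (11.9-fold, adjusted p = 0.000342). The 3 fold arrays agree within 0.1 for both genes, whereas the plate arrays differ, with replicate 2 the higher. The forebrain homeobox gene hesx1.L read 7.29, 7.39 and 7.84 in ANF18, against 6.27 and 7.75 in NP12, with overlap (log2 difference 0.50, SE 0.52, adjusted p = 0.482). Likewise otx2.S, a homeobox factor of head identity, read 9.21, 8.33 and 9.04 in ANF18, against 8.1 and 8.9 in NP12 (log2 difference 0.36, SE 0.31, adjusted p = 0.386). Fold and plate overlapped for both, and a difference of their own was not detectable with this number of arrays.

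The 3 listed genes that fell were named after their values were seen. The crx.L gene, an otx-family factor known in Xenopus as otx5, read 7.25, 7.47 and 7.14 in ANF18, against 10.83 and 11.37 in NP12 (14-fold lower, adjusted p = 2.42e-07). The LIM factor lhx5.S read 4.93, 4.72 and 5.33 in ANF18, against 8.71 and 8.63 in NP12 (12.8-fold lower, adjusted p = 5.38e-07). Neither gene overlapped between groups, and both were still above background in the fold. The remaining one, bcl11a.L, was below background on every array of both groups, and its call was lost without NP12 replicate 1 (log2 difference -0.23, adjusted p = 0.231) and without ANF18 replicate 2 or 3 (adjusted p = 0.0504 and 0.0585).

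**Figure D3:**
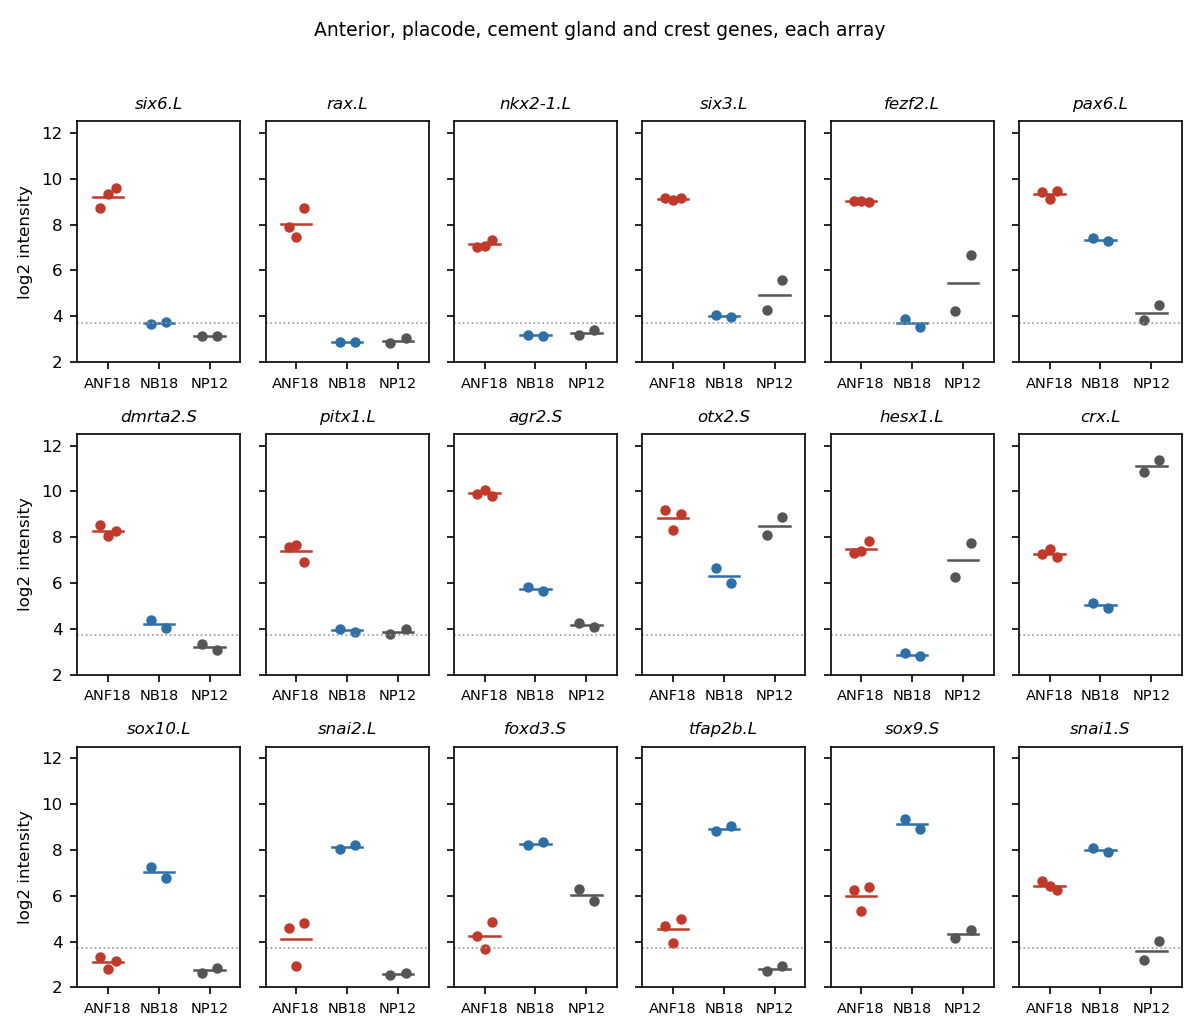
Log2 intensity on each array of ANF18 (red, 3), NB18 (blue, 2) and NP12 (grey, 2) for anterior, placode and cement gland genes (upper rows) and crest genes (bottom row). Bars are group means and the dotted line is the background at 3.72. The six6.L, rax.L and nkx2-1.L levels are high in ANF18 alone, otx2.S and hesx1.L are high in ANF18 and NP12, and the 6 crest genes are highest in NB18.

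Placode factors, which mark the thickened ectoderm that gives lens, nose, ear and pituitary, were largely higher. Of 17 measured, 10 rose, 1 fell and 6 did not pass, and their median log2 difference was 0.71. Against NB18, 5 of the 17 were higher in ANF18 and 0 lower, beside 194 and 232 of all 6505 genes. Between NB18 and NP12, 7 of the 17 were higher in NB18 and 1 lower, beside 1554 and 1717 of all genes. The pax2.L level, for a factor of the otic placode and the optic stalk, was 8.07, 8.33 and 8.48 in ANF18, against 3.66 and 4.25 in NP12 (20.2-fold, adjusted p = 2.73e-07). The pitx1.L level, for a homeobox factor of pituitary and cement gland, was 7.59, 7.65 and 6.91 in ANF18, against 3.75 and 3.99 in NP12 (11.4-fold, adjusted p = 1.32e-06). Groups were well apart for both. In NB18 the mean was 7.47 for pax2.L and 3.93 for pitx1.L. The homeobox gene dlx5.L rose 2.19-fold (adjusted p = 0.000336). The pan-placodal cofactor eya1.L rose at least 1.11-fold (log2 difference 0.59, adjusted p = 0.0137) and did not pass without NP12 replicate 1 (0.53, adjusted p = 0.0896). The member that fell, eya3.L, was 2.13-fold lower and was named after its value was seen.

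Genes of the cement and hatching glands were largely higher in the fold than in the plate. The list written for the cement gland held 5 genes: 3 were higher, 0 lower and 2 not past the threshold. The median log2 difference of the list was 3.51. Those not past were cga.S, at background on all 5 arrays, and pnhd.L (log2 difference 0.23, adjusted p = 0.648). Whether either of them marks the cement gland was not tested, so they are not read as unchanged cement gland genes. The ag1.L level, for another anterior gradient protein of the cement gland, was 11.65, 11.85 and 11.42 in ANF18, against 7.19 and 6.93 in NP12 (23.9-fold, adjusted p = 7.24e-08). The ag1.L mean was also high in NB18, at 10.38. Of the 5 listed genes 3 were higher in ANF18 than in NB18 and 0 lower, beside 194 and 232 of all 6505 genes. All 4 hatching gland genes rose, with a median log2 difference of 3.91. These 4 were also higher in NB18 than in NP12, beside 1554 of all 6505 genes. So were 3 of the 5 genes listed for the cement gland, but not the same 3. The pitx1.L mean was 3.93 in NB18 and 3.87 in NP12, whereas that of pnhd.L was 7.52 in NB18 and 6.15 in NP12. The hatching enzyme gene astl3a.1.L read 8.61, 7.39 and 8.93 in ANF18, against 3.26 and 3.38 in NP12, at least 24.1-fold higher (adjusted p = 5.18e-06). Fold replicate 2 was the lowest of its group and still 4 log2 units above the plate. A related enzyme gene, astl2e.2.L, was higher by 1.90 on the log2 scale (adjusted p = 0.0114) but did not pass without NP12 replicate 1 (1.75, adjusted p = 0.0799).

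Genes of the neural border moved in both directions. Of 10 measured, 6 rose, 3 fell and 1 did not pass; their median log2 difference was 0.57. Some rises were modest and leaned on 1 plate array. The msx2.L log2 difference was 0.72, and 0.48 without NP12 replicate 2. That of zic2.S was 0.41, and 0.37 without NP12 replicate 1. Both genes were named after their values were seen. The zic5.S gene rose most, at 8.43, 8.74 and 8.62 in ANF18, against 3.96 and 3.92 in NP12 (25.3-fold, adjusted p = 3.71e-07). Its relative zic1.S, a border and neural plate zinc finger factor named in the series title, fell. One probe set of zic1.S read 8.17, 8.35 and 8.32 in ANF18, against 10.38 and 10.61 in NP12 (4.65-fold lower, adjusted p = 4.6e-07), and the other was 5.46-fold lower (adjusted p = 8.86e-06). The border repressor gene prdm1.S fell 2.52-fold, and tfap2a.L, an AP-2 factor of border and epidermis named after its value was seen, fell by 1 on the log2 scale.

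The other factor of the title, pax3, gave no single answer. The pax3.S probe set read 7.1, 6.56 and 7.91 in ANF18, against 4.85 and 6.78 in NP12, with overlap (log2 difference 1.38, SE 0.50, adjusted p = 0.0435), and it did not pass without NP12 replicate 1 (0.41, adjusted p = 0.483) or without ANF18 replicate 1 (1.42, adjusted p = 0.0752) or 3 (1.02, adjusted p = 0.136). Of 4 pax3.L probe sets, 2 passed, at log2 differences of 1.79 and 2.09, and neither passed without NP12 replicate 1 (adjusted p = 0.0752 and 0.0688). The other 2 differed by -0.10 and -0.16 (adjusted p = 0.663 and 0.841). Probe sets of this gene thus disagreed, and the plate arrays differed in pax3.S by 1.93 log2 units. The msx1.L gene, a border homeobox factor and BMP target, read 7.8, 7.08 and 7.79 in ANF18 against 6.5 and 6.5 in NP12 (2.08-fold, adjusted p = 0.00251).

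Neural crest factors were present in part. Of 10 measured, 5 rose, 2 fell and 3 did not pass; their median log2 difference was 0.94. The myc.S gene, a growth regulator active in border and crest, read 9.3, 9.25 and 9.7 in ANF18, against 6.58 and 6.47 in NP12 (7.42-fold, adjusted p = 9.96e-07). The snai1.S gene, a zinc finger repressor of epithelial genes, read 6.63, 6.41 and 6.27 in ANF18, against 3.2 and 4.01 in NP12 (7.11-fold, adjusted p = 1.8e-05). In both, groups were apart by more than 2 log2 units.

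The factors most particular to crest moved in both directions from the plate, and each of those below was lower in the fold than in NB18. The SoxE gene sox10.L read 3.33, 2.78 and 3.16 in ANF18, against 2.63 and 2.85 in NP12, at background on all 5 arrays (adjusted p = 0.242). The foxd3.S gene, a forkhead factor of early crest, read 4.25, 3.67 and 4.87 in ANF18, against 6.29 and 5.75 in NP12 (3.38-fold lower, adjusted p = 0.00066). The ets1.L gene fell 2.03-fold (adjusted p = 0.00629) but not without NP12 replicate 1 (log2 difference -0.75, adjusted p = 0.0801), which leaves 1 crest factor past the threshold as lower. The snai2.L gene read 4.58, 2.95 and 4.83 in ANF18, against 2.54 and 2.63 in NP12. It passed at a log2 difference of 1.53 (adjusted p = 0.0147), with fold replicate 2 at background, and did not pass without NP12 replicate 1 (1.49, adjusted p = 0.0816) or 2 (1.58, adjusted p = 0.0618). The tfap2b.L gene, an AP-2 factor of crest, rose at least 1.76-fold and sox9.S, another SoxE factor, 3.14-fold, both with fold replicate 2 the lowest, at 3.94 and 5.33.

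Of 17 crest effector genes, which serve adhesion, guidance and migration, 7 rose, 1 fell and 9 did not pass (median log2 difference 0.22). The highest changes were in sema3a.L (4.76-fold) and efnb2.S (4.53-fold), guidance ligands, epha4.L (3.93-fold), an ephrin receptor, and cxcr4.L (3.6-fold), a chemokine receptor. All 4 are also made outside crest, in neural tissue among others.

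Neural progenitor genes changed in both directions, with 7 of 13 higher, 5 lower and 1 not past (median log2 difference 0.58). The general neural factor sox2.L read 10.26, 9.82 and 10.11 in ANF18, against 9.12 and 9.85 in NP12, with overlap (log2 difference 0.58, adjusted p = 0.041). It did not pass without NP12 replicate 1 (0.22, adjusted p = 0.425), without ANF18 replicate 1 (0.48, adjusted p = 0.119) or 3 (0.56, adjusted p = 0.0938). The related sox3.S read 10.11, 9.5 and 9.94 in ANF18, against 10.56 and 10.75 in NP12, a loss of 0.81 (adjusted p = 0.00405). Genes of the earliest plate fell more: foxd4l1.1.S stood at 4.05, 3.83 and 4 in ANF18, against 8.35 and 8.43 in NP12, and gmnn.L, the replication inhibitor geminin, was 6.17-fold lower.

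Cell adhesion genes of the closing neural tube came on. The cdh2.L gene, N-cadherin, read 7.21, 6.93 and 7.5 in ANF18, against 2.67 and 3.64 in NP12 (at least 11.2-fold, adjusted p = 2.04e-06), and ncam1.S, a neural adhesion molecule, read 7.7, 7.51 and 8.02 in ANF18, against 3.36 and 4.36 in NP12 (14.8-fold). The gap was over 3 log2 units in both genes. In the opposite direction cdh3.L, the cadherin of the early frog embryo, read 9.47, 9.35 and 9.05 in ANF18, against 10.47 and 10.88 in NP12 (2.61-fold lower, adjusted p = 0.000304). The 11 cadherin and protocadherin genes had 5 risers, 1 faller and 5 not past the threshold, with cdh20.L at least 4.50-fold and pcdh8.2.L at least 4.17-fold higher.

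Among 24 neuronal differentiation genes 8 were higher, 1 was lower (3 without NP12 replicate 1, 0 without NP12 replicate 2 or ANF18 replicate 1) and 15 were not past the threshold. Their median log2 difference was 0.02, and 10 were at background on all 5 arrays. The neural tubulin gene tubb2b.S read 7.89, 7.88 and 7.75 in ANF18, against 3.25 and 3.83 in NP12 (19.7-fold, adjusted p = 1.3e-07). The synaptic vesicle gene syt1.L was 9.3-fold, the growth cone gene dpysl3.L 6.87-fold and the neurofilament-type gene prph.L 3.51-fold higher. The proneural gene neurog2.S, which starts neurogenesis, did not pass (log2 difference -0.46, adjusted p = 0.0773), but was lower without NP12 replicate 1 (-0.70, adjusted p = 0.0374). The RNA-binding factor gene elavl3.L was lower by 1.02 (adjusted p = 0.0157), but not past the threshold without NP12 replicate 2 (-0.55, adjusted p = 0.18) or ANF18 replicate 1 (-0.88, adjusted p = 0.0515).

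Early ectoderm and blastula genes fell broadly. Of 32 measured, 21 fell, 2 rose (1 without either plate array, or without ANF18 replicate 1 or 2) and 9 did not pass; their median log2 difference was -0.74, and the mean level of the list was 4.29, 4.28 and 4.13 on the ANF18 arrays, against 5.94 and 5.67 on the NP12 arrays. Beside tdgf1.3.L and pou5f3.2.L, foxi4.2.S, a forkhead factor of animal ectoderm, was 16.2-fold and pou5f3.1.L 14.6-fold lower. The foxi4.2.S plate arrays read 9.09 and 7.54, both far above 4.41, 4 and 4.5 in ANF18. Among genes named after their values were seen, the BMP-responsive ventx2.1.S was 10.9-fold, dppa2.L 13-fold and zar1.S, a maternal-effect gene, 11.1-fold lower. Fold arrays were at background for 15 of the 32 genes, plate arrays for 8.

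**Figure D4:**
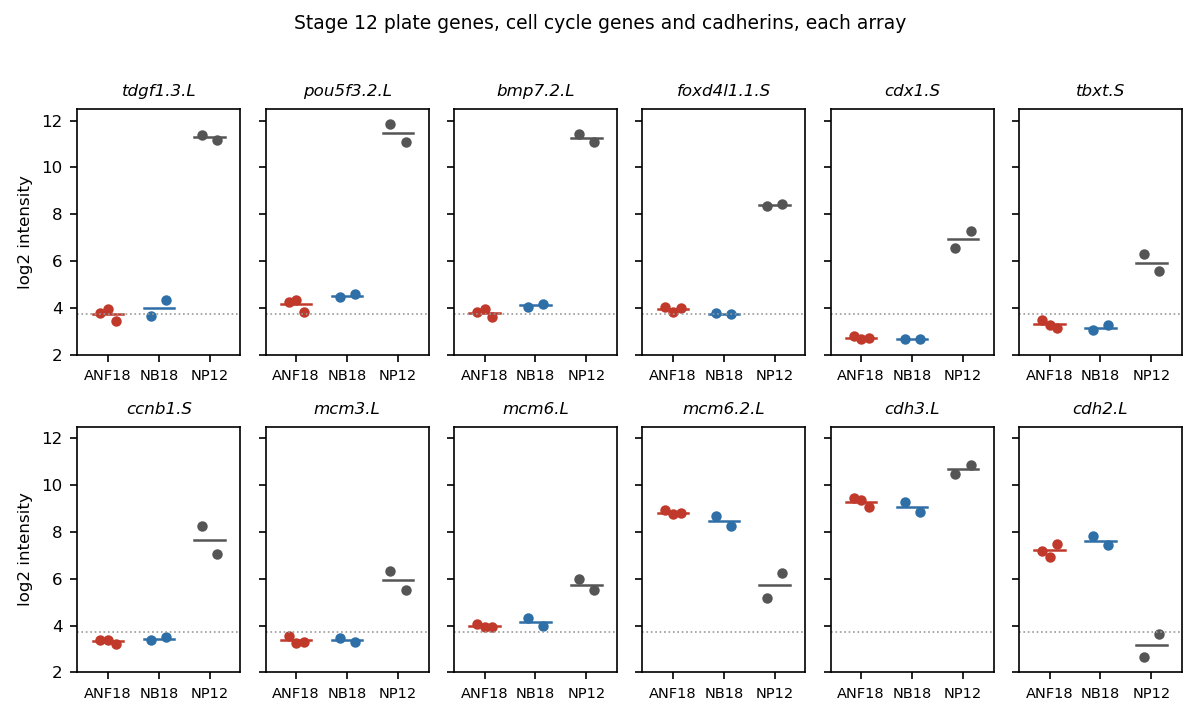
Log2 intensity on each array of ANF18 (red, 3), NB18 (blue, 2) and NP12 (grey, 2) for genes of the stage 12 plate, cell cycle genes and 2 cadherins. Bars are group means and the dotted line is the background at 3.72. The upper row is high in NP12 alone, mcm6.L and mcm6.2.L go in opposite directions, and cdh2.L is high in both stage 18 tissues.

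The caudal genes fell to background, while most other posterior genes did not pass. The caudal factor cdx1.S read 2.8, 2.67 and 2.7 in ANF18, against 6.55 and 7.29 in NP12 (at least 9.18-fold lower, adjusted p = 2.2e-07), and cdx4.L was at least 5.03-fold lower. The fold was at background for both on every array. Of 21 hox and caudal genes 0 rose, 3 fell and 18 did not pass; the remaining faller, hoxa11.S, differed by -0.28 (adjusted p = 0.0368) around background and did not pass without any single array (adjusted p from 0.0711 to 0.113). Hox genes proper were already low: 12 of the 21 were at background on all 5 arrays. Of 12 hindbrain and posterior neural factors 3 rose, 2 fell and 7 did not pass. The losses were irx2.L, an Iroquois homeobox factor, at 5.25, 5.21 and 5.91 in ANF18, against 8.91 and 9.31 in NP12 (12.6-fold, adjusted p = 1.24e-06), and its relative irx1.L (2.94-fold). Another Iroquois gene, irx3.L, was higher by 1.43 (adjusted p = 0.00863), though not past the threshold without NP12 replicate 1 (1.00, adjusted p = 0.107).

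Some secreted Wnt inhibitors came above background in the fold. Among 9 Wnt antagonist genes 4 were higher, 4 were not past the threshold and 1 was lower, a call that was lost (0 lower) when any 1 array was left out. Of the 4, sfrp2.S was higher by 0.60 (adjusted p = 0.00999) and did not pass without NP12 replicate 1 (0.48, adjusted p = 0.0961). The frzb.L level, for a secreted Frizzled-related inhibitor, was 6.52, 6.39 and 6.19 in ANF18, against 3.67 and 3.64 in NP12 (at least 6.25-fold, adjusted p = 2.64e-07). The dkk1.S level, for a blocker of the Wnt co-receptor that promotes head formation, was 5.71, 5.13 and 5.43 in ANF18, against 3.18 and 3.3 in NP12 (at least 3.25-fold, adjusted p = 2.84e-05). For both, the plate was at background and the fold above it on every array. The frzb2.L gene, known in the frog as crescent, rose at least 2.46-fold, while cer1.S, the head inducer cerberus, was below background on all fold arrays.

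Of 14 Wnt ligand genes 5 rose, 3 fell and 6 did not pass; 3 rose without either plate array, or without ANF18 replicate 1 or 3, while 1 fell without NP12 replicate 1. The wnt8b.S gene, a forebrain and midbrain Wnt, rose at least 3.00-fold (5.18, 4.58 and 6.16 in ANF18, against 2.9 and 3.39 in NP12) and wnt2b.L 3.29-fold, with fold replicate 2 lowest in each. Among 15 receptor and regulator genes 4 rose and 5 fell, beside 25.0% higher and 27.8% lower among all genes. The Frizzled receptor gene fzd3.L rose 7.13-fold and fzd5.S, a receptor used in the eye field, at least 2.70-fold, whereas fzd7.L, the receptor abundant in the early embryo, fell 5.66-fold and ror2.L, a receptor of non-canonical Wnts, 4.87-fold. Of 8 nuclear effectors and targets 1 rose (0 without NP12 replicate 1) and 2 fell: sp5l.S, a direct Wnt target, fell 7.43-fold and tcf7l1.L, a repressing TCF factor, was lower without overlap (8.26, 8.37 and 8.21 in ANF18, against 9.34 and 9.41 in NP12, adjusted p = 0.000273).

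BMP pathway genes moved in both directions, as did all genes (25.0% higher and 27.8% lower). Of 7 ligands 1 rose, 3 fell and 3 did not pass. Beside bmp7.2.L, bmp4.S fell at least 3.71-fold (3.07, 3.47 and 3.26 in ANF18, against 5.92 and 5.31 in NP12), while bmp7.1.L, the other BMP7 gene, rose 3.57-fold (6.47, 6.72 and 6.46 in ANF18, against 4.57 and 4.85 in NP12). The 2 bmp7 genes were thus opposed, each without overlap. Of 10 receptor and target genes 1 rose and 4 fell, among them the receptor genes acvr1.S (2.36-fold) and bmpr1a.L (2.29-fold) and the signal transducer smad1.S (2.12-fold). Of 14 antagonists and regulators 3 rose and 6 fell: nog.L, the inhibitor noggin, rose at least 5.17-fold and tll1.S, a protease that frees BMP from chordin, at least 3.90-fold, whereas dand5.S, a secreted BMP and Nodal inhibitor, fell at least 10.6-fold and twsg1.L, the BMP-binding protein twisted gastrulation, 8.61-fold.

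In the FGF pathway fgf8.L, made by the anterior neural ridge, rose 2.7-fold, at 6.92, 5.45 and 6.23 in ANF18, against 4.83 and 4.7 in NP12 (adjusted p = 0.00561). It was the sole riser of 7 FGF ligand genes, with 0 lower by limma's test (1 without NP12 replicate 2). Of 8 FGF receptors, regulators and targets 1 rose, fgfr1.L (2.2-fold), and 1 fell, fgfr4.S, which did not pass without NP12 replicate 2 (log2 difference -0.55, adjusted p = 0.0776), while 2 fell without ANF18 replicate 1. In the hedgehog pathway 4 of 11 genes rose and 0 fell (1 without ANF18 replicate 3): the ligand gene shh.L (at least 6.17-fold), the effector genes gli3.L (3.98-fold) and gli2.L (2.56-fold), and the co-receptor gene boc.L (3.13-fold).

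Retinoid genes changed on both the making and the breaking side, in shares near those of all genes (25.0% higher and 27.8% lower). The synthesis enzyme gene aldh1a2.L read 6.67, 6.46 and 6.74 in ANF18, against 5 and 4.4 in NP12 (3.79-fold, adjusted p = 1.98e-05). The degrading enzyme gene cyp26a1.S read 5.3, 5.23 and 5.21 in ANF18, against 9.14 and 9.18 in NP12 (15-fold lower, adjusted p = 5.93e-08). Neither showed overlap. Another degrading enzyme gene, cyp26c1.S, was higher by 1.27 (adjusted p = 0.0199), on plate arrays that read 5.55 and 7.09. Without NP12 replicate 1 its log2 difference shrank to 0.50 and the call was lost. The call was also lost without ANF18 replicate 3 (1.06, adjusted p = 0.0671). The cyp26c1.S mean was 7.59 in ANF18 and 10.50 in NB18. The receptor gene rarg.S fell 4.42-fold and dhrs3.L, a retinal reductase, 6.55-fold. In all, 3 of 13 retinoid genes rose and 4 fell, and 1 rose without NP12 replicate 1 or without ANF18 replicate 3.

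Of 22 Notch pathway genes 7 rose, 4 fell and 11 did not pass, beside 25.0% higher and 27.8% lower among all genes. The target gene hes1.S, a repressor that keeps progenitors undifferentiated, rose 22.8-fold, at 9.16, 8.89 and 9.82 in ANF18, against 4.68 and 4.88 in NP12 (adjusted p = 1.65e-06). The hes5.1.L (3.5-fold) and hes5.2.L (3.03-fold) targets rose too, and hes7.1.L, a gene of the segmentation clock, fell 3.18-fold. The count of fallers was 2 without NP12 replicate 1 or ANF18 replicate 3.

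Genes of the midline were measured because head mesoderm lies under the anterior fold. Of 14 axial mesoderm and notochord genes 6 rose, 3 fell and 5 did not pass (median log2 difference 0.38), and the mean level of the list was 4.9, 4.76 and 5.07 on the ANF18 arrays, against 4.36 and 4.3 on the NP12 arrays. The shh.L level, for the ligand of notochord, prechordal mesoderm and ventral midline, was 6.44, 6.2 and 6.41 in ANF18, against 3.05 and 3.15 in NP12 (adjusted p = 1.11e-07). The gsc.L gene, a homeobox factor of prechordal mesoderm named after its value was seen, read 5.63, 5.96 and 6.76 in ANF18, against 3.62 and 4.48 in NP12 (4.19-fold, adjusted p = 0.000465). Groups did not overlap in either. By contrast tbxt.S, brachyury, the defining factor of notochord and early mesoderm, fell at least 4.62-fold to background in the fold (3.49, 3.28 and 3.14 in ANF18, against 6.3 and 5.55 in NP12), and foxa4.S, a factor of notochord and floor plate named after its value was seen, fell at least 1.64-fold. The notochord factor not.S did not pass (6.75, 6.08 and 6.71 in ANF18, against 6.87 and 6.56 in NP12, adjusted p = 0.494). The part of mesoderm in the levels of shh.L, nog.L, frzb.L and dkk1.S was not tested.

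Markers of other tissues were mostly at background. Of 22 muscle and paraxial mesoderm genes 1 rose and 3 fell, 12 were at background on all 5 arrays, and the defining factors myod1.L and tbx6.L were among these 12. The mean level of that list was 3.66, 3.61 and 3.6 on the ANF18 arrays, against 3.73 and 3.76 on the NP12 arrays. Of 14 endoderm genes 2 rose and 1 fell (1 and 0 without NP12 replicate 1). They include a2m.S, an alpha-2-macroglobulin gene, at 8.78, 9.34 and 8.93 in ANF18, against 5.52 and 5.65 in NP12 (10.8-fold, adjusted p = 8.41e-06), whereas the defining factor hhex.L was at background on all arrays and sox17a.S did not pass (3.41, 3.73 and 3.47 in ANF18, against 3.25 and 3.16 in NP12, adjusted p = 0.0709), though it did with quantile normalization (0.0405) and with trend and robust moderation (0.0387). The related endoderm factor gene sox17b.1.S read 4.88, 5.18 and 4.71 in ANF18, against 4.13 and 4.53 in NP12 (log2 difference 0.59, adjusted p = 0.0155), and did not pass without NP12 replicate 1 (0.39, adjusted p = 0.161). Its difference from NB18 was 0.83 (adjusted p = 0.018), not past the threshold without ANF18 replicate 2 (adjusted p = 0.0531) or NB18 replicate 2 (0.121). The list's mean level was 3.85, 3.96 and 3.85 on the ANF18 arrays, against 3.66 and 3.65 on the NP12 arrays. Of 23 blood and lateral mesoderm genes 3 rose and 3 fell, 14 were at background on all 5 arrays, tal1.S, the blood factor, among them, and the list's mean levels were 3.79, 3.89 and 3.74 in ANF18, against 3.87 and 3.86 in NP12.

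Surface ectoderm was represented beside neural tissue. Of 19 keratin genes 7 were higher and 1 was lower, and 11 were at background on all 5 arrays. The krt12.4.L gene, a larval epidermal keratin, read 9.51, 9.61 and 9.61 in ANF18, against 5.59 and 5.51 in NP12 (16.3-fold, adjusted p = 1.81e-06), krt7.L rose 14.6-fold and krt8.1.S 9.26-fold. The krt12.5.S gene rose 25.5-fold on plate arrays that read 4.85 and 6.47. The member that fell is krtcap3.L, which is no keratin and entered the list by its name, as was seen after its value. Of 22 epidermis genes 8 were higher, 7 lower and 7 not past the threshold, with a mean level of 6.42, 6.49 and 6.35 on the ANF18 arrays, against 5.9 and 5.96 on the NP12 arrays. Envoplakin evpl.L rose 6.66-fold, periplakin ppl.L at least 4.57-fold and tp63.L, a basal epidermal factor, at least 2.79-fold, while occludin ocln.S fell 3.83-fold; the epidermal factor grhl3.L was at background on all 5 arrays. Of 18 multiciliated cell genes 2 rose and 1 fell (2 fell without NP12 replicate 2; 5 rose and 2 fell with only the arrays compared in the fit). Among the risers foxn4.S, a factor of multiciliated cells that frog retinal progenitors also use, rose 7.08-fold (6.35, 6.7 and 6.73 in ANF18, against 3.52 and 4.03 in NP12). The structural gene tekt2.S was at background on all 5 arrays. Against NB18, 0 of 22 epidermis genes were higher and 4 lower, 1 of 18 multiciliated cell genes was higher and 4 lower. Of 19 keratin genes 1 was higher and 1 lower. Over all genes 2.98% were higher and 3.57% lower. The krt12.4.L level was lower than in NB18 by 1.33 (adjusted p = 0.0128). Without NB18 replicate 2 it was lower by 0.97 and the call was lost. What share of the neural and placode differences goes with surface ectoderm in the dissection was not tested.

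Cyclin and mitosis genes fell more often than they rose. Of 36 cyclin and mitosis genes 17 fell, 6 rose and 13 did not pass (median log2 difference -0.33). The mitotic cyclin gene ccnb1.S read 3.38, 3.38 and 3.21 in ANF18, against 8.26 and 7.08 in NP12 (at least 15.4-fold lower, adjusted p = 1.77e-06). The ccnb2.S gene read 8.15, 8.11 and 8.39 in ANF18, against 11.12 and 10.49 in NP12 (6.01-fold lower), kif23.S, a cytokinesis kinesin, was 6.23-fold and birc5.S, survivin, 8.25-fold lower. So ccnb1.S went to background while ccnb2.S stayed well above it.

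Of 51 replication and G1 genes 18 rose, 12 fell and 21 did not pass (median log2 difference 0.13). The helicase subunit gene mcm6.2.L, known in the frog as the zygotic form of MCM6, read 8.92, 8.76 and 8.8 in ANF18, against 5.19 and 6.25 in NP12 (8.62-fold, adjusted p = 1.01e-05). Its relative mcm6.L, named after its value was seen, read 4.08, 3.94 and 3.93 in ANF18, against 5.98 and 5.5 in NP12 (3.39-fold lower, adjusted p = 1.78e-05). These paralogs of 1 subunit thus moved in opposite directions, each without overlap. Another subunit gene, mcm3.L, fell at least 4.66-fold, and the G1/S cyclin gene ccne2.L 4.64-fold. Chosen after their values were seen, gins3.L (3.84-fold), fen1.L (3.78-fold), e2f1.L (3.63-fold) and mcm4.L (3.41-fold), all of DNA replication or its control, rose. The ribonucleotide reductase gene rrm2.1.L was lower by 2.08 (adjusted p = 0.034), but not past the threshold without NP12 replicate 1 (adjusted p = 0.14) or 2 (0.112), or without ANF18 replicate 1 (0.093) or 2 (0.0712).

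Ribosomal protein genes rose nearly throughout. Of 64 cytosolic ribosomal protein genes 59 were higher, 1 was lower and 4 were not past the threshold, with a median log2 difference of 1.07, and the mean level of the list was 10.66, 10.64 and 10.7 on the ANF18 arrays, against 9.48 and 9.62 on the NP12 arrays. The rpl8.S gene read 11.47, 11.54 and 11.54 in ANF18, against 9.18 and 9.46 in NP12 (4.58-fold, adjusted p = 1.19e-06), and rpl22l1.L, a variant subunit gene, rose 5.61-fold. The member that fell is rps10.L (1.78-fold), named after its value was seen.

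Against the crest-forming border of the same stage, far fewer probe sets differed: 925 of 15491 (5.97%) passed between ANF18 and NB18, 413 higher (2.67%) and 512 lower (3.31%) in ANF18, and 476 (3.07%) differed at least 2-fold, 201 higher (1.3%) and 275 lower (1.78%). The total was 543 without NB18 replicate 2 and 611 without ANF18 replicate 3. These comparisons share the ANF18 arrays, so their values are given side by side. ANF18 was higher than both NP12 and NB18 for 297 probe sets (1.92%) and lower than both for 145 (0.936%). It lay between the others, above NP12 and below NB18, for 156 (1.01%), and below NP12 and above NB18 for 47 (0.303%).

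Anterior factors led the genes higher than in NB18. Of the 26 anterior neural and forebrain factors 19 were higher and 0 lower than in NB18, beside 2.98% higher and 3.57% lower among all 6505 genes. Counting each gene once by the copy that changed most, the 8 largest fitted differences were those of six6.L (45.9-fold), agr2.L (41.3-fold), fezf2.L (39.8-fold), rax.L (at least 19.8-fold), six3.L (34.4-fold), lgals4.2.L (34.4-fold), hesx1.L (at least 13.8-fold) and the Frizzled receptor gene fzd8.S (22-fold). The NB18 means of six6.L (3.69), fezf2.L (3.70) and fzd8.S (3.64) also lay under 3.72, so the background leaves the order of these genes unsettled. For hesx1.L the border arrays read 2.94 and 2.8, at background, and for otx2.S 6.66 and 5.99, so that ANF18 was 5.78-fold higher (adjusted p = 0.00086). Thus hesx1.L and otx2.S, which did not pass against the plate, passed against the border. Another fzd8.S probe set did not pass in either comparison (log2 differences 0.08 against NP12 and -0.20 against NB18).

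Crest genes gave the opposite picture. Of 10 crest factors 0 were higher and 7 lower than in NB18, beside 2.98% higher and 3.57% lower among all 6505 genes. Counted in the same way, the 8 genes with the largest fitted differences below NB18 were foxd3.L (24-fold; its other copy foxd3.S 16.1-fold), tfap2b.L (21-fold), snai2.L (16.1-fold), sox10.L (at least 9.79-fold), the anion exchanger gene slc26a4l.L (at least 7.47-fold), the growth factor receptor gene pdgfra.L (11.3-fold), the protocadherin gene pcdh8l.S (10.9-fold) and sox9.S (8.78-fold). The snai2.L level was 4.58, 2.95 and 4.83 in ANF18, against 8.05 and 8.21 in NB18 (adjusted p = 0.000476). For slc26a4l.L the border arrays read 5.31 and 7.94, and without NB18 replicate 2 it did not pass (log2 difference -2.19, adjusted p = 0.05). The tfap2a.L gene was 5.06-fold lower than in NB18, and msx2.L, named after its value was seen, 4.93-fold lower.

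Some posterior and Wnt genes were also lower than in NB18, beside 2.98% higher and 3.57% lower among all 6505 genes. Of 21 hox and caudal genes 0 were higher, 4 lower and 17 not past the threshold. The lower ones included hoxa2.L and hoxa3.S (at least 3.04-fold and at least 3.18-fold, named after their values were seen), both at background in ANF18 and NP12. Of 14 Wnt ligands 0 were higher and 6 lower, with wnt8a.L at 3.45, 3.33 and 3.6 in ANF18, against 6.45 and 6.64 in NB18 (at least 7.07-fold, adjusted p = 3.93e-06), and the Wnt feedback gene axin2.S was 3.24-fold lower (adjusted p = 0.000691). Both genes were named after their values were seen. In the other direction 3 of 9 Wnt antagonist genes, frzb.L, dkk1.S and frzb2.L, were higher than in NB18 and 0 lower, and tcf7l1.L was 4.87-fold higher. Of 14 axial mesoderm genes 7 were higher than in NB18 and 1 lower, including not.S (2.88-fold, adjusted p = 0.0024) and gsc.L (at least 5.26-fold).

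Few early ectoderm, hatching gland and ribosomal protein genes passed between the stage 18 tissues. Few genes of any kind did, as 2.98% of all 6505 were higher and 3.57% lower in ANF18. The low counts are therefore not read as a trait of those lists. Of 32 early ectoderm and blastula genes 1, pou5f3.1.L, differed from NB18 (3.51-fold lower in ANF18). Of 4 hatching gland genes and 64 ribosomal protein genes 0 passed by limma's test, and at an unadjusted p under 0.05 there were 1 hatching gland gene lower and 2 ribosomal protein genes higher. A missed threshold does not show equal levels, and the log2 differences of the hatching gland genes ranged from -1.32 for astl2d.1.L to -0.15 for xa-1.L. The astl2d.1.L difference passed without NB18 replicate 1 (-1.80, adjusted p = 0.0346) and with dim probe sets left out (adjusted p = 0.0436). Replication genes differed in 1 direction, with 12 of 51 higher and 0 lower in ANF18 than in NB18. The cyclin D1 gene ccnd1.S, named after its value was seen, read 11.07, 11.33 and 11.23 in ANF18, against 10.03 and 9.98 in NB18 (2.31-fold, adjusted p = 0.000285). Against the plate it did not pass (log2 difference -0.19, adjusted p = 0.233), though it did as lower with quantile normalization (-0.38, adjusted p = 0.0251).

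A few genes moved away from the plate in opposite directions in the stage 18 tissues, beside 6897 probe sets (44.5%) that passed between NB18 and NP12. ANF18 was higher and NB18 lower than NP12 for 16 probe sets (0.103%), and ANF18 lower and NB18 higher for 18 (0.116%), each past the threshold in both comparisons with the plate and between the tissues. Among the named genes the first kind held aldh1a2.L, fezf2.L, fzd8.S, six3.L and zic2.S, and the other kind both foxd3 copies, elavl3.L, ets1.L, tfap2a.L and wnt8a.L; zic2.S was named after its value was seen. By limma's test, the NB18 difference from the plate passed narrowly for six3.L, elavl3.L and fezf2.L (adjusted p from 0.0334 to 0.047). The fzd8.S level was 8.14, 8 and 8.16 in ANF18 and 3.72 and 3.56 in NB18, against 5.34 and 5.97 in NP12. The foxd3.L level was 4.07, 2.86 and 4.68 in ANF18 and 8.36 and 8.55 in NB18, against 6.21 and 5.29 in NP12, and without NP12 replicate 1 its loss in ANF18 did not pass (log2 difference -1.42, adjusted p = 0.0801).

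Xenopus laevis carries 2 subgenomes, and many genes have a copy on each, marked .L and .S. For 1017 genes both copies were measured. In 311 both passed against NP12 in the same direction and in 47 they passed in opposite directions. The plin3 copies, for a lipid droplet protein, and the pkp3 copies, for a desmosomal plakophilin, were among the widest apart and were named after their values were seen. The plin3.L level was 4.55, 4.48 and 4.15 in ANF18, against 8.2 and 8.15 in NP12, and that of plin3.S 7.64, 7.69 and 7.7 in ANF18, against 5.84 and 5.91 in NP12. The pkp3.L copy fell 3.08-fold while pkp3.S rose 9.09-fold. Probe sets of 1 gene copy also disagreed at times: of 1293 copies with several probe sets, 39 had probe sets past the threshold in both directions, and the part of the probe sets in the opposed copies was not tested.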

How the data were processed

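Total RNA from dissected tissue was labelled with biotin and hybridised to Affymetrix Xenopus arrays, per the labels' protocols. The table the authors deposited holds 1 log2 intensity per probe set and array. That the scale is log2 and already normalized between arrays is read from the values, which ran from 2.13 to 13.56 with 0 missing. Background correction and normalization are not given in the sources used here. R 2.14.2 appears in the submitters' processing notes, with no role stated. The scale was taken as deposited, and no further normalization was applied.

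Of 15491 probe sets that are not controls, 9304 had 1 symbol in the platform annotation (9227 updated through RefSeq), 195 several and 5992 none. All 11 arrays entered 1 limma fit (limma 3.58.1, R 4.3.3) with a mean per group and eBayes moderation (6 residual and 3.75 prior degrees of freedom), which was tested on simulated data. Its p-values are two-sided and adjusted by Benjamini-Hochberg within a comparison. A gene in a list stands for its brightest probe set, by the mean of the 11 arrays.

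Members and lists were chosen with earlier results of these data known. Genes named were drawn from a rule: the 12 largest gains and 12 largest losses against NP12 and the 8 and 8 against NB18 (1 symbol, past the threshold, no overlap, a gene's copies counted once), up to 4 called members of each list with the largest changes, cell type markers, and all zic1 and pax3 probe sets. Others are said to be named after their values were seen. Some of the cell type markers were not analysed here.

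No label pairs same-numbered arrays, and they were not treated as pairs. Alternatives were quantile normalization, median centring, leaving out dim probe sets, fitting only the arrays compared, eBayes with trend and robust settings, the replicate number as a block, averaging the probe sets of a gene (lists only), and leaving out each array. No sequence is shown.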

Additional observations from a re-analysis of the deposited data

Results flagged for a closer look

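For 11 named probe sets the difference from the stage 12 plate went in opposite directions in ANF18 and in the stage 18 border. They were picked because both differences, and that between ANF18 and NB18, passed the threshold of limma's test. The p-values that follow were thus part of the choice and add no separate support. The values are ANF18 minus NB18 on the log2 scale. The retinoic acid synthesis gene aldh1a2.L differed by 2.80 (SE 0.18, adjusted p = 1.84e-05), the forebrain factor fezf2.L by 5.31 (SE 0.53, adjusted p = 0.000305), the receptor gene fzd8.S by 4.46 (SE 0.20, adjusted p = 1.73e-06) and the eye field factor six3.L by 5.10 (SE 0.30, adjusted p = 8.32e-06). The zic gene zic2.S differed by 0.98 (SE 0.11, adjusted p = 0.000571). All 5 were higher in ANF18. The crest factor copies foxd3.L and foxd3.S differed by -4.58 (SE 0.45, adjusted p = 0.000287) and -4.01 (SE 0.29, adjusted p = 3.4e-05), and the neuronal gene elavl3.L by -1.95 (SE 0.29, adjusted p = 0.00318). The crest factor ets1.L differed by -2.40 (SE 0.25, adjusted p = 0.000337), the AP-2 gene tfap2a.L by -2.34 (SE 0.14, adjusted p = 8.32e-06) and the Wnt ligand gene wnt8a.L by -3.08 (SE 0.16, adjusted p = 3.93e-06). These 6 were lower in ANF18. Against the plate, the ANF18 call of foxd3.L, ets1.L and zic2.S was lost without NP12 replicate 1 (adjusted p = 0.0801, 0.0801 and 0.071), that of wnt8a.L without either plate array (0.0648 and 0.0741) or ANF18 replicate 2 (0.0512), and that of elavl3.L without NP12 replicate 2 (0.18) or ANF18 replicate 1 (0.0515). The plate arrays were furthest apart for fezf2.L, at 4.22 and 6.68, and the lower one was near the NB18 mean of 3.70. By limma's test, NB18 minus NP12 passed narrowly for six3.L (adjusted p = 0.047), elavl3.L (0.0381) and fezf2.L (0.0334). Leaving out arrays was not run for that comparison.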

How the results depend on the processing

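No named probe set past the threshold changed sign under the alternatives run on it. Some that did not pass against NP12 did, with log2 differences from -0.24 to 1.24 for hesx1.L, -0.05 to 0.76 for otx2.S, -0.36 to 0.01 for not.S, and -0.48 to 0.16 and -0.28 to 0.08 for both pax3.L probe sets not past the threshold. For ANF18 minus NP12, the probe sets past the threshold numbered 5668 to 6791 with 1 array left out (2752 to 3366 higher, 2916 to 3425 lower, 3208 to 3798 at least 2-fold), against 7364 in all. With 1 array left out, ANF18 minus NB18 gave 543 to 1058 (241 to 375 higher, 302 to 683 lower, 379 to 630 at least 2-fold). The totals of 543 (241 higher, 302 lower) without NB18 replicate 2 and 611 (320 lower) without ANF18 replicate 3 moved by over 1.5 times from 925; fewer arrays were then fitted. With the replicate number as a block, 6849 probe sets passed against NP12 and 696 against NB18. Same-numbered arrays deviated together at r = -0.102 and -0.096 for ANF18 and NP12 and at 0.257 and -0.005 for ANF18 and NB18, so the numbers were not taken to pair the arrays. Of 211 named probe sets, 176 kept their call against NP12 and 169 against NB18 under each alternative run on them; 190 of the 211 remained when dim probe sets were left out, and averaging a gene's probe sets was run on the lists only. The block ended the call of 4 of them against NP12, hoxa11.S, pax3.S, sox2.L and wnt4.L. Without NP12 replicate 1, 23 named probe sets lost their call against NP12, and without NP12 replicate 2, 10 did; the cause was not tested. Probe sets near the background at 3.72 give bounds only, and with 2 plate arrays modest differences can be missed.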

Other observations

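The NP12 arrays differed in genes of several kinds, a few border and anterior genes among them. In c3.L and hsp70.L replicate 2 read 7.34 and 9.03, against 5.43 and 7.33 in replicate 1. In dapl1.L replicate 1 was the higher (7.05 against 5.32). Replicate 2 was higher in fezf2.L (6.68 against 4.22 in replicate 1), pax3.S (6.78 against 4.85), hesx1.L (7.75 against 6.27) and six3.L (5.59 against 4.28), and replicate 1 was higher in foxi4.2.S (9.09 against 7.54). Of the 92 probe sets at least 2-fold apart, 47 were higher in replicate 1 and 45 in replicate 2. Among the ANF18 arrays, replicate 2 was the lowest in snai2.L (2.95), foxd3.L (2.86), sox9.S (5.33), tfap2b.L (3.94), wnt8b.S (4.58), lhx2.L (6.21) and rax.S (5.57).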
